A study of Mus musculus with 36 samples.

Results

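Hmgcs1, Idi1, Fdps, Sqle, Lss, Cyp51 and Insig1 were followed in mouse liver after a toxic dose of acetaminophen, the common pain medicine. The first 6 encode enzymes of cholesterol synthesis and Insig1 encodes a regulator of the pathway. None of the 7 encodes an uptake protein, and genes of uptake are given as a separate list. A probe set, the group of short probes that reports 1 transcript, was taken as a member when it was mapped to exactly 1 of these symbols. There were 17 such probe sets of 45101 on the array, for 7 genes of 18193 with a probe set of their own. Of the 17, 16 passed the filter on low signal, and all 7 genes were among the 14057 tested.

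Total RNA from the livers of 36 mice was measured on 1-colour Affymetrix arrays, with 1 mouse per array. The strains are labelled DBA, SJL, C57 and SMJ, which the series gives as DBA/2, SJL, C57B6 and SmJ, and it calls SJL resistant to the injury and the other 3 sensitive. All mice were fasted overnight for more than 16 h, and acetaminophen was injected once into the abdomen at 300 mg/kg. For each strain, livers of 3 mice were taken at 0 h, before the dose, and of 3 other mice each at 3 h and 6 h, which gave 12 groups of 3. The series has no group given vehicle alone at 3 h or 6 h, so time after the dose, time of day and length of fasting cannot be told apart. Age and sex are not given in the sources used here.

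Cells make cholesterol from acetyl-CoA through mevalonate and a chain of isoprenoids that ends in squalene, which is then oxidised, closed into a ring and trimmed to cholesterol. The genes of this chain are switched on together by SREBP transcription factors, which are held in the endoplasmic reticulum while sterols are plentiful and released to the nucleus when sterols run low. The liver is the main site of cholesterol synthesis in the body and also turns cholesterol into bile acids. Hmgcs1 makes HMG-CoA, the precursor of mevalonate. Idi1 interconverts the 5-carbon isoprenoid units and Fdps joins them into farnesyl diphosphate. Sqle oxidises squalene, Lss closes the oxidised squalene into lanosterol, and Cyp51 removes a methyl group from lanosterol. Insig1 holds the SREBP escort protein in the endoplasmic reticulum and is itself a target of SREBP.

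SREBP factors bind sterol regulatory elements, usually beside sites for NF-Y, which binds CCAAT boxes, and for Sp1. The 250 bases before an annotated start were available from RefSeq (GRCm38.p6) for 5 of the 7 genes, and 4 are shown to place these motifs. They are chr13:119690101-119690350 for Hmgcs1, chr5:28071162-28071411 for Insig1, chr13:8885356-8885605 for Idi1 and chr10:76531355-76531604 for Lss, all on the plus strand. RefSeq also places the start of the Lss gene at 76531565, so the end of the Lss stretch lies within that gene span. Capitals mark matches, on either strand, to the core of the sterol regulatory element (CACNCCAC) and to the CCAAT box (CCAAT, or ATTGG on the other strand).
Hmgcs1: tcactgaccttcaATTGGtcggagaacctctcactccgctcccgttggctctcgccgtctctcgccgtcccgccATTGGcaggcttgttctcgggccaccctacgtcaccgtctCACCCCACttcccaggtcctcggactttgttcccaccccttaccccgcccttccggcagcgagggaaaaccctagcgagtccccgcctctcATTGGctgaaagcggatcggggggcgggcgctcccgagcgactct
Insig1: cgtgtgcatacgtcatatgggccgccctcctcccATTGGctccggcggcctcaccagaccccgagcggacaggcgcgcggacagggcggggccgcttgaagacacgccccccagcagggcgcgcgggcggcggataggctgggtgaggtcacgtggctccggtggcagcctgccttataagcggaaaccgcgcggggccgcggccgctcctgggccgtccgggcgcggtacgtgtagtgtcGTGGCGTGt
Idi1: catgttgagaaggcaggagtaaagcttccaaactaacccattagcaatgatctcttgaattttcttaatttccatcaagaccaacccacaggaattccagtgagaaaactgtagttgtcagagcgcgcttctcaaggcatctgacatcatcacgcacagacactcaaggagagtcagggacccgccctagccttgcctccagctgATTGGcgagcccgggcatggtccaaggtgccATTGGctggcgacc
Lss: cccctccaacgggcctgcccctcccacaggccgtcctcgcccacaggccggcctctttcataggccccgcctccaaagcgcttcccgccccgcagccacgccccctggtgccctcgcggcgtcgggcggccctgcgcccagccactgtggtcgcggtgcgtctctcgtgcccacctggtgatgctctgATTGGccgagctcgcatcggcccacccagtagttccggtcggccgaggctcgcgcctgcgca
The CCAAT box was found in all 5 promoters, including that of Cyp51, which is not printed, against 33.8% of the 32851 promoters of the RefSeq table. A GC box (GGGCGG, on either strand, not capitalised) was also in 5 of 5, against 32.7%. Hmgcs1 and Insig1 held the sterol regulatory element core, against 5.29% of all promoters. An E-box (CACGTG) was found in the Insig1 promoter alone of the 5, against 6.02%. The motifs were searched without regard to overlap, and a match is a run of letters and not a shown binding site.

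The signals are MAS5 values on a linear scale, and changes are differences of log2(signal + 2.77) from a fit with limma over all 36 arrays, given with their standard error. Adjusted p values are Benjamini-Hochberg over the 14057 genes, with a threshold of 0.05. Each mouse is a separate animal, so p values rest on the spread between mice within groups. That spread is 1 estimate per gene, shared by all 12 groups. Signals of different probe sets are not comparable with each other, and in whole liver fewer cells of a type cannot be told apart from less RNA per cell. Arrays of the same group correlated at 0.916 to 0.964 over genes in 36 pairs, and 3 arrays a group limit the precision. Of the hepatocyte markers, Alb had a signal of at least 10884 and Apoa1 of at least 15829 on each array, where the median of all values was 30.8.

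**Figure D1:**
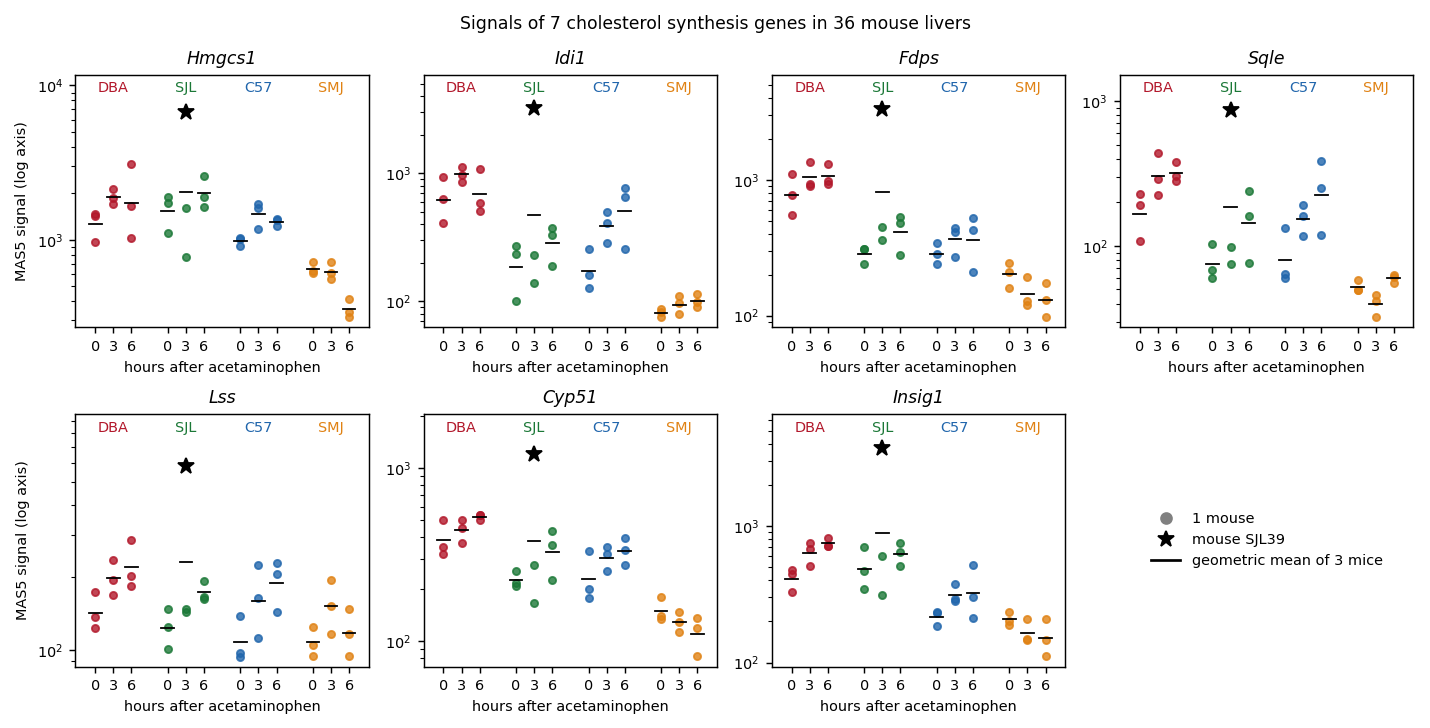
MAS5 signal on a log axis of the chosen probe set of each gene in every mouse, by strain and hours after acetaminophen. The star is mouse SJL39, above the other 35 arrays in all 7 panels, and the SMJ mice lie lowest in most panels.

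Mouse SJL39, at 3 h, stood apart from the rest before any comparison. Its signal was the highest of the 36 arrays for all 7 genes, while 5.24% of all tested genes were highest in this mouse. The array also stood apart over all tested genes. It correlated at 0.916 with SJL40 and 0.919 with SJL42, lower than any other pair of arrays of the same group. Hmgcs1 had a signal of 6737 in SJL39, against 776 in SJL40 and 1609 in SJL42, the other SJL mice at 3 h. The Idi1 signal was 3261 in SJL39, against 139 and 228. For Fdps it was 3337, against 362 and 451. Each of these 3 genes was several times higher in SJL39 than in either companion. Sqle gave 862 in SJL39, against 75.3 in SJL40 and 97.7 in SJL42. Lss gave 584, against 148 and 143. Cyp51 gave 1199, against 165 and 276. Insig1, the regulator, had 3718 in SJL39, against 315 and 604. The ratio of SJL39 to the mean of SJL40 and SJL42 ran from 4.0 for Lss to 17.8 for Idi1, and its ratio to the next highest array of the series from 1.97 for Sqle to 4.58 for Insig1. The next highest array was a DBA mouse in each case.

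Other genes of cholesterol synthesis were high in the same mouse. Among the pathway genes outside the 7, SJL39 was the highest of the 36 arrays for 17 of 52. These were 3 of 4 genes of the mevalonate and isoprenoid steps, 7 of 9 of the sterol steps, 2 of 7 of SREBP control, 1 of 8 of uptake and transport, 0 of 10 of disposal and export, and 4 of 14 of fatty acid synthesis. The uptake gene was Stard4, a carrier of cholesterol inside the cell, named after its values were seen. Insig2, the other Insig protein, went the opposite way in this mouse, with a signal of 2167, against a mean of 6270 in SJL40 and SJL42. Cyp7a1, which sets the rate of bile acid synthesis, had 300.5, against a mean of 986, and Mylip, which marks the LDL receptor for degradation, had 145, against 535. Several other measures moved with SJL39, and their part in its values was not tested. Neutrophil markers, 7 of 9 measured, summed to 11006 in SJL39 and to between 756 and 7843 in the other 8 SJL mice, and most of that sum was Lcn2, at 8808, a gene that injured hepatocytes also express. S100a9 was 954 in SJL39 against 71.7 to 946, while Cxcr2 was 5.74 against 5.69 to 58.1. Hepatocyte markers, 5 of 6 measured, summed to 66157 in SJL39, against 71221 to 103974. Endothelial markers summed to 1168, against 1421 to 1822, and stellate markers to 2928, against 3288 to 4753. Bile duct markers, 4 of 4 measured, summed to 568 in SJL39, against 123 to 306. The actin ratio of 3' to 5' probe sets, a sign of RNA quality, lay within the range of the other SJL mice, at 1.41 in SJL39 and 1.33 to 1.87 in the others.

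**Figure D2:**
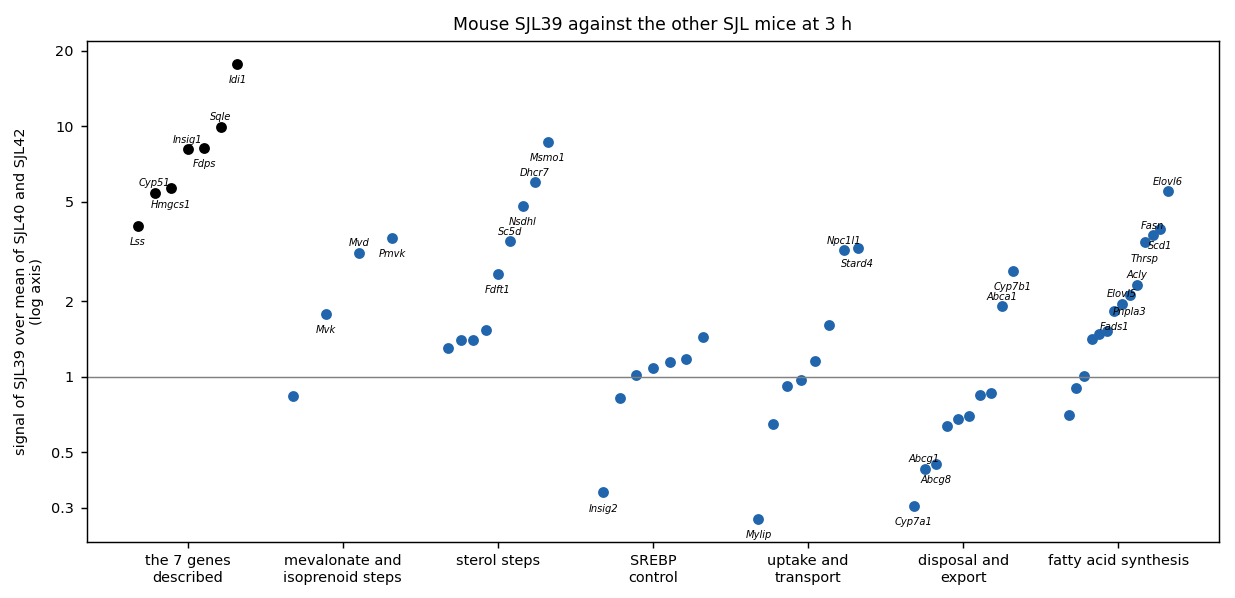
Signal of SJL39 over the mean of SJL40 and SJL42, all SJL mice at 3 h, on a log axis, for the 7 genes and for the other genes of 6 pathway lists. The 7 genes lie between 4.0 and 17.8, and Insig2, Mylip and Cyp7a1 lie below 1.

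Across the strains, SMJ had the lowest mean of the 4 in all 7 genes and DBA the highest in 5, or in all 7 without SJL39. Averaged over the 3 times, a comparison added after the data were seen, 6 of 7 genes differed between strains by the F test, all but Lss (adjusted p = 0.0907). Of all tested genes 54.0% did so, so the count alone is close to the background. Lss also passed without SJL39 (adjusted p = 0.0125), which made 7 of 7 against a background of 55.3%, and without SJL40 or SJL42. The size and order of the differences are given for each pair of strains.

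Of the pairs of strains, DBA against SMJ had the largest median difference of the 7 genes, while Hmgcs1 and Insig1 differed more in SJL against SMJ, a comparison that holds SJL39. All 7 genes were higher in DBA than in SMJ as the mean of the 3 times, and 13.5% of tested genes were higher by the same test. The median difference of the 7 was 1.76 on the log2 scale, against -0.02 over all tested genes. Idi1 ran from 409 to 1120 with a median of 861 in the 9 DBA mice, against 75.6 to 112.9 with a median of 90.6 in the 9 SMJ mice. The groups did not overlap, and the difference was 2.99 ± 0.39 on the log2 scale (adjusted p = 1.19e-06, limma). Fdps ran from 550 to 1355 with a median of 931 in DBA, against 97.9 to 243 with a median of 160.4 in SMJ, a difference of 2.59 ± 0.29 (adjusted p = 1.29e-07, limma). Sqle had 108 to 438 with a median of 279 in DBA, against 32.3 to 63.2 with a median of 49.7 in SMJ. Its difference was 2.28 ± 0.33 (adjusted p = 6.16e-06, limma). In each of these 3 enzymes the lowest DBA mouse lay above the highest SMJ mouse. The differences were 1.76 ± 0.23 for Cyp51, 1.73 ± 0.29 for Insig1 and 1.62 ± 0.26 for Hmgcs1, and the groups did not overlap there either. That made 6 of 7 genes with all 9 DBA arrays above all 9 SMJ arrays, against 2.58% of all tested genes. Lss was the exception, with 123 to 286 in DBA and 94.4 to 196 in SMJ and a difference of 0.56 ± 0.20 (adjusted p = 0.038, limma). Leaving out any 1 of 11 single arrays ended the Lss call, with differences of 0.50 or more.

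Before the dose, with 3 mice a group, the same contrast, also added after the data were seen, passed for 3 genes, against 4.47% of tested genes higher. Idi1 had 938, 630 and 409 in DBA at 0 h, against 82.8, 87.0 and 75.6 in SMJ at 0 h, a difference of 2.89 ± 0.67 (adjusted p = 0.00574, limma). For Fdps the DBA mice had 1106, 775 and 550, against 160.4, 209.6 and 243 in SMJ, a difference of 1.94 ± 0.51 (adjusted p = 0.014, limma). Cyp51 had 504, 317 and 349 in DBA, against 134, 141 and 180.8 in SMJ, a difference of 1.33 ± 0.41 (adjusted p = 0.038, limma). No mouse of 1 strain reached the range of the other in these 3 genes, nor in Hmgcs1, Sqle and Insig1, which did not pass. The share of all tested genes without overlap at 0 h was not counted. The contrast passed for 6 genes without SJL39, all but Lss, with a background of 5.46% higher, and for 4 without SJL40, Sqle being added, with a background of 5.05%. It passed for Idi1 alone without SMJ56 or DBA113, and the Cyp51 call was also lost without SMJ57, SMJ58 or DBA115. The F test over the 4 strains at 0 h passed for 2 of 7 genes, Idi1 and Fdps, while 26.5% of tested genes passed. Without SJL39 it passed for 6, all but Lss, with a background of 29.6%, without SJL40 for 5, without DBA113 for 0 and without DBA114 for 1. Neither SJL39 nor SJL40 belongs to the 0 h groups, and each enters this test through the shared estimate of spread. Erythroid markers, 2 of 3 measured, summed to 877 to 942 in DBA at 0 h and 132 to 149 in SMJ at 0 h, and hepatocyte markers to 67364 to 78964 in DBA and 65296 to 69047 in SMJ, and their part in the strain differences was not tested.

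SJL and C57 were also compared with SMJ as means of the 3 times. Against SMJ, 6 genes were higher in SJL, all but Lss, with a background of 13.1%. The largest was Insig1, with 315 to 3718 in SJL, against 111 to 234 in SMJ, and a difference of 1.89 ± 0.29. Hmgcs1 had 776 to 6737 in SJL, against 316 to 719 in SMJ, with a difference of 1.81 ± 0.26. These 2 genes had no overlap between SJL and SMJ, and 235 of all 14057 tested genes had every SJL array above every SMJ array. Without SJL39 the differences of Insig1 and Hmgcs1 were 1.54 ± 0.18 and 1.53 ± 0.17. In C57 against SMJ, 5 genes were higher, with a background of 15.3%. Idi1 differed by 1.79 ± 0.39 and Sqle by 1.45 ± 0.33, while Insig1 gave 0.68 ± 0.29 (adjusted p = 0.0738, limma) and Lss 0.25 ± 0.20. Without SJL39, Insig1 passed at the same difference, with adjusted p = 0.00275 by limma, and it also passed without SJL40 or C57237.

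Against C57, DBA was higher in 4 genes, with a background of 12.5%. These were Fdps, at 1.50 ± 0.29, Idi1, at 1.20 ± 0.39, Insig1, at 1.05 ± 0.29, and Cyp51, at 0.64 ± 0.23. The Cyp51 call was lost without any 1 of 13 single arrays, and Idi1 was lost without C57237. Sqle, at 0.84 ± 0.33 (adjusted p = 0.0624, limma), passed without any 1 of 5 arrays, among them SJL39 (adjusted p = 0.00542, limma). Against SJL, DBA was higher in Idi1 (1.35 ± 0.39), Fdps (1.05 ± 0.29) and Sqle (0.99 ± 0.33), with a background of 11.6%, and Hmgcs1 and Insig1 gave -0.20 ± 0.26 and -0.16 ± 0.29. The Sqle call was lost without any 1 of 6 arrays. Without SJL39, Cyp51 passed as well, at 0.81 ± 0.15, with a background of 12.2%. Idi1, Fdps and Sqle then gave 1.81 ± 0.24, 1.38 ± 0.19 and 1.35 ± 0.23, while Hmgcs1 and Insig1 gave 0.09 ± 0.17 and 0.18 ± 0.18 and did not pass. SJL exceeded C57 in Insig1 alone of the 7, by 1.21 ± 0.29 (adjusted p = 0.00195, limma), with a background of 15.0%. Hmgcs1 gave 0.58 ± 0.26 and did not pass. With 1 array left out its difference ran from 0.29 to 0.81, and it passed only without SJL40, at 0.81 ± 0.21. At 0 h, before the dose, the contrast of SJL with the other 3 strains passed for 0 of 7 genes by limma, against 12.3% of tested genes. At an unadjusted p under 0.05 there was 1 of the 7, against 3569 of the 14057 tested genes. Without SJL39, Hmgcs1 (0.72 ± 0.24) and Insig1 (0.87 ± 0.24) were higher in SJL, with a background of 7.63%.

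**Figure D3:**
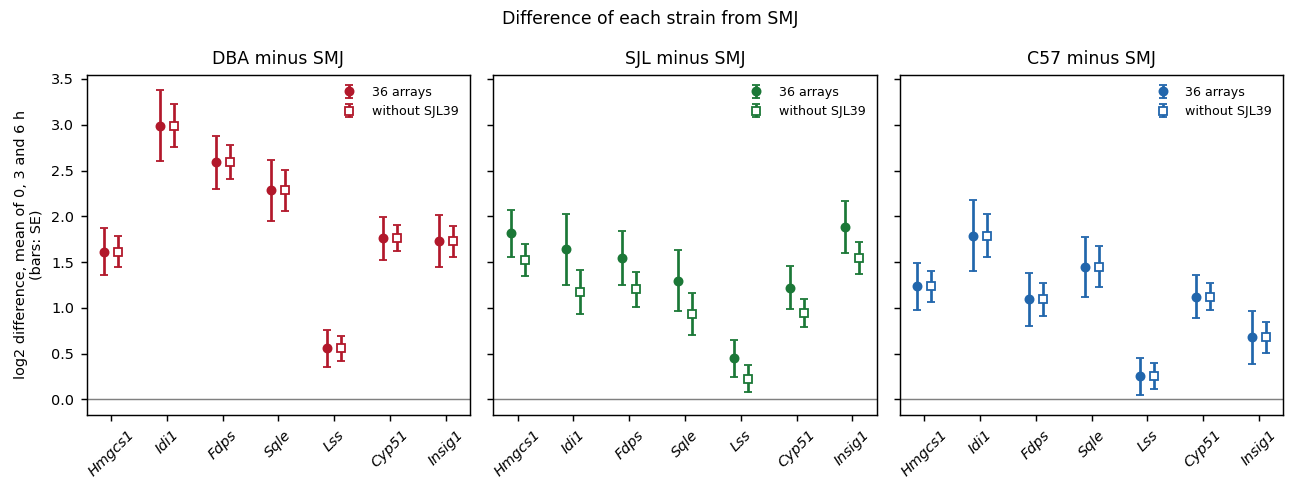
Difference of DBA, SJL and C57 from SMJ on the log2 scale, as the mean of 0 h, 3 h and 6 h, with bars of 1 standard error, for all 36 arrays (filled) and without mouse SJL39 (open). The DBA differences reach 2.99 for Idi1, and Lss has the smallest difference in each panel, at 0.56, 0.45 and 0.25.

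After acetaminophen, Sqle and Lss rose and the other 5 genes did not pass the test at 6 h. The change is the mean of the 4 strains. The 2 calls compare with 12.7% of tested genes higher at 6 h. Sqle ranged from 49.6 to 227 with a median of 66.0 in the 12 mice at 0 h, from 32.3 to 862 with a median of 139 at 3 h, and from 55.4 to 385 with a median of 201 at 6 h. Its change at 6 h was 0.87 ± 0.29 (adjusted p = 0.0204, limma), and it passed whichever array was left out. Lss ranged from 93.3 to 173 with a median of 123 at 0 h, from 112 to 584 with a median of 167 at 3 h, and from 94.6 to 286 with a median of 175 at 6 h. Its change was 0.51 ± 0.18 (adjusted p = 0.0267, limma), which was lost without SMJ103 or DBA166. The ranges of the times overlapped widely in both genes. Idi1 changed by 0.64 ± 0.34 (adjusted p = 0.156, limma), and it passed without SJL39, at 0.64 ± 0.20 (adjusted p = 0.0136, limma), which made 3 genes against a background of 13.3%. The median change of the 7 at 6 h was 0.34, against -0.05 over all tested genes. Hmgcs1 gave 0.10 ± 0.22, Fdps 0.18 ± 0.25, Cyp51 0.27 ± 0.20 and Insig1 0.34 ± 0.25.

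At 3 h Lss alone of the 7 rose, by 0.61 ± 0.18 (adjusted p = 0.0335, limma), against 3.16% of tested genes higher. The call was lost without any 1 of 13 single arrays, with values of 0.55 to 0.61 there. Without SJL39 it was 0.44 ± 0.13 (adjusted p = 0.0288, limma). The other 6 genes ran from 0.28 ± 0.20 for Cyp51 to 0.83 ± 0.34 for Idi1, and without SJL39 from 0.08 ± 0.13 for Cyp51 to 0.48 ± 0.21 for Idi1. Idi1 passed without SJL40, at 1.05. The median of the 7 at 3 h was 0.45, against -0.03 over all tested genes. None of the 7 differed between 3 h and 6 h by limma, against 16.8% of tested genes. None had an unadjusted p under 0.05 either, against 4133 of the 14057 tested genes.

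The rise of Lss depended on its probe set. The chosen set, 1420013_s_at, is of a kind whose probes can match related transcripts. The other Lss set with signal above the median on most arrays, 1426913_at, changed by 0.13 ± 0.14 at 3 h and 0.24 ± 0.14 at 6 h and passed at neither time. The third, 1420014_at, gave 0.23 ± 0.26 and 0.04 ± 0.26. In DBA against SMJ, as the mean of the 3 times, 1426913_at gave 0.83 ± 0.16 and 1420013_s_at 0.56 ± 0.20. For the remaining genes with several sets, the contrast of DBA with SMJ was higher in every tested set, from 1.56 ± 0.26 to 3.26 ± 0.41. In all, 15 of 16 tested sets passed this contrast. The set that failed the filter was a Fdps set, 1438150_at, above the median signal of all values on 1 array.

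Within single strains none of the 7 genes passed at 3 h or 6 h by limma. At 3 h the background was 10.1% of tested genes changed in SJL, 1.45% in DBA, 0.285% in C57 and 0.171% in SMJ. At 6 h it was 6.99% in SJL, 12.6% in DBA, 10.3% in C57 and 21.4% in SMJ. At an unadjusted p under 0.05 there were 3 genes in SJL at 3 h, 3 in C57 at 6 h and 0 in the other 6 comparisons. Of the 14057 tested genes, 3239 were under that threshold in SJL at 3 h and 3344 in C57 at 6 h. The other 6 comparisons had between 1056 and 4552. For Hmgcs1, SJL40 had 776 and SJL42 had 1609 at 3 h, against 1740, 1105 and 1897 in SJL at 0 h, so SJL40 lay below and SJL42 within the 0 h values. For Fdps, SJL40 and SJL42 had 362 and 451, above all 3 SJL mice at 0 h, which had 312, 240.1 and 308. In SJL at 3 h the change of Fdps was 1.51 ± 0.51 (adjusted p = 0.056, limma), and without SJL39 it was 0.50 ± 0.36. For Hmgcs1 it was 0.40 ± 0.44, and without SJL39 it was -0.46 ± 0.33. SJL40 had the lowest signal of the 3 SJL mice at 3 h for every gene but Lss. Without SJL40, 6 of the 7 rose in SJL at 3 h, with a background of 3.19%, and without SJL42, 2 did. The size of the SJL change at 3 h thus turned on SJL39.

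In C57 the change at 6 h was above 0 for all 7 genes, from 0.34 for Fdps to 1.52 for Idi1. The 3 with an unadjusted p under 0.05 by limma are given here. Idi1 had 767, 656 and 255 in C57 at 6 h, against 128, 255 and 161 at 0 h, a change of 1.52 ± 0.67 (adjusted p = 0.16, limma). Sqle had 385, 251 and 118 in C57 at 6 h, against 60.3, 133 and 63.8 at 0 h, a change of 1.46 ± 0.57 (adjusted p = 0.109, limma). For Lss the C57 mice had 229, 206.5 and 144 at 6 h, against 93.3, 138 and 97.4 at 0 h, a change of 0.80 ± 0.35. The Lss groups did not overlap, while mouse C57237 lay within the 0 h range for Idi1 and Sqle. The C57 groups of Hmgcs1 did not overlap either. Other strains had such separations too. In DBA, every mouse at 6 h lay above every 0 h mouse for Sqle, Lss, Cyp51 and Insig1, with Cyp51 by a narrow margin. The same held for Lss in SJL and for Idi1 in SMJ. The share of all tested genes without overlap between times was not counted in any strain. Idi1, Sqle and Lss passed in C57 without SJL39, which lowers the shared spread. Their adjusted p values were 0.0121, 0.0132 and 0.031 by limma, with a background of 5.29% higher. In SMJ, Hmgcs1 had 414, 316 and 338 at 6 h, against 626, 610.0 and 719 at 0 h. The groups did not overlap, and Hmgcs1 gave -0.87 ± 0.44 (adjusted p = 0.176, limma), and -0.87 ± 0.29 without SJL39 (adjusted p = 0.0304, limma), with a background of 14.0% lower. The signs differed between SMJ and the other strains for Hmgcs1, Fdps, Cyp51 and Insig1 at 6 h. The test of that difference, an F test over the 4 strains, passed for 0 of 7 genes at 3 h, against 1.95% of tested genes, and for 0 of 7 at 6 h, against 5.35%. None of the 7 had an unadjusted p under 0.05 in it, against 1955 of the 14057 tested genes at 3 h and 3047 at 6 h. The SMJ change against the other 3 strains together, a comparison added after the data were seen, passed for 0 of 7 genes by limma at 3 h, against 0.00711% of tested genes. There 2 of the 7 had an unadjusted p under 0.05, against 727 of the 14057 tested genes. At 6 h the SMJ comparison passed for 0 of 7 by limma, against 2.31%. An unadjusted p under 0.05 was found for 1 of the 7, against 2243 of the 14057 tested genes. That gene was Hmgcs1, at -1.29 ± 0.51 (adjusted p = 0.199, limma). Without SJL39 Hmgcs1 passed, at -1.29 ± 0.34 (adjusted p = 0.0307, limma), with a background of 1.74% lower. Set against the other 3 strains together, the SJL change passed for 0 of 7 genes at 3 h, against 4.63%, and for 0 of 7 at 6 h, against 0.349%. At an unadjusted p under 0.05 there was 1 of the 7 at 3 h, against 2631 of all 14057, and 0 at 6 h, against 1798.

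**Figure D4:**
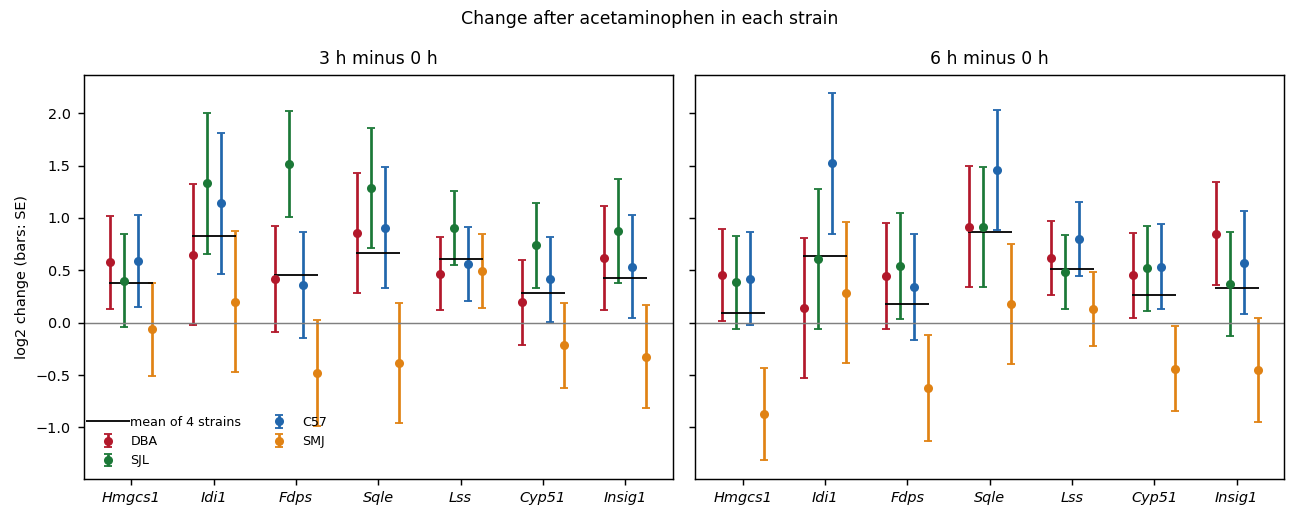
Change from 0 h in each strain on the log2 scale, at 3 h (left) and 6 h (right), with bars of 1 standard error and a line for the mean of the 4 strains. The SMJ points lie below 0 for Hmgcs1, Fdps, Cyp51 and Insig1 at both times and for Sqle at 3 h. At 6 h the bars of all 4 strains overlap for Lss alone.

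Around the 7 genes, the pathway held rises and falls at 6 h. The lists were chosen with earlier results known, include the 7 genes and are described by counts of tested genes in the mean of the 4 strains. Of all tested genes, 12.7% rose and 20.4% fell by the same test. In the mevalonate and isoprenoid steps 1 of 7 rose, Ggps1, by 0.34 ± 0.09, which makes the longer isoprenoid used to anchor proteins in membranes. In the sterol steps 4 of 12 rose and 2 fell. Beside Sqle and Lss, Msmo1, which acts after Cyp51, rose by 1.05 ± 0.28, and Lbr, a sterol reductase of the inner nuclear membrane, by 0.52 ± 0.06. Hsd17b7, a sterol ketone reductase, gave -0.31 ± 0.10 and passed. In SREBP control 1 of 8 rose, Srebf1, the SREBP gene linked mainly to fatty acid synthesis, by 0.69 ± 0.13, and 3 fell. Those were Rnf139, a ubiquitin ligase of the endoplasmic reticulum, at -0.50 ± 0.07, and Mbtps2 and Mbtps1, the proteases that release SREBP, at -0.31 ± 0.10 and -0.16 ± 0.05. Srebf2, the SREBP gene linked mainly to cholesterol synthesis, gave -0.19 ± 0.12 (adjusted p = 0.242, limma) and Insig2 gave 0.11 ± 0.15 (adjusted p = 0.63, limma). The median of the list was 0.20 in the sterol steps and -0.11 in SREBP control, against -0.05 over all tested genes.

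Among genes that move or dispose of cholesterol, falls outnumbered rises, and 20.4% of all tested genes fell at 6 h. In uptake and transport 1 of 8 rose and 3 fell. Npc1, which exports cholesterol from lysosomes, gave -0.57 ± 0.06, Mylip -0.66 ± 0.16 and Lipa, the lysosomal acid lipase, -0.38 ± 0.09, while Npc2, the partner of Npc1, rose by 0.12 ± 0.05. In disposal and export 1 of 10 rose and 6 fell. Cyp7a1 gave -1.59 ± 0.28, Cyp8b1, which makes the cholic acid branch of bile acids, -0.50 ± 0.07 and Nr1h3, the oxysterol receptor LXR alpha, -0.32 ± 0.05, while Abca1, the exporter that loads cholesterol onto HDL, rose by 0.58 ± 0.11. In fatty acid synthesis 3 of 14 rose and 2 fell, with Thrsp, a regulator of lipid synthesis, at 2.54 ± 0.33 and Acly, which makes acetyl-CoA from citrate, at 0.49 ± 0.12 among those that rose. Those that fell were Acacb, an acetyl-CoA carboxylase, at -0.57 ± 0.12, and Gpam, which starts glycerolipid synthesis, at -0.32 ± 0.07. Over the same 6 h, neutrophil markers summed to between 988 and 10818 in the 12 mice at 6 h, against 199.9 to 4020 at 0 h, and hepatocyte markers to between 71870 and 117986, against 57544 to 97025. Their part in the changes was not tested.

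**Figure D5:**
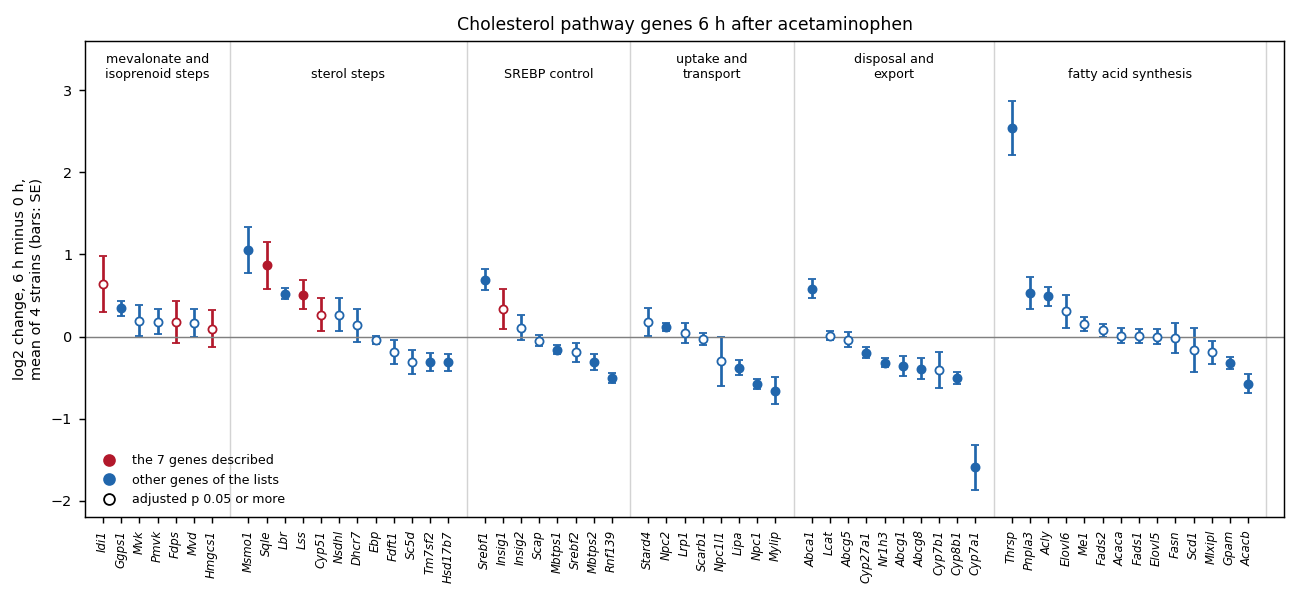
Change at 6 h on the log2 scale, as the mean of the 4 strains, with bars of 1 standard error, for the genes of 6 lists ordered by size within each list. The 7 genes described are red, filled points passed the test, and most genes of disposal and export lie below 0.

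The 7 genes varied together over the arrays. Each gene was correlated with the mean of the other 6, standardised and on the log2 scale, over the 36 arrays, as a description. Pearson's r ran from 0.740 for Lss to 0.940 for Cyp51, and the 21 pairs of genes had a median r of 0.815. Without SJL39 the median pair r was 0.766, and of deviations from the group means, also without SJL39, it was 0.466, with a range of -0.06 to 0.799. Strain, time and array are shared by these points. The mean standardised level was lowest in SMJ101, at -1.29, and highest in SJL39, at 2.88, with DBA166 next, at 1.40, and the 9 SMJ mice were the 9 lowest of the 36.

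Outside the 7, the 10 genes whose pattern over the 36 arrays was most like their mean were named by Pearson's r. They were Nsdhl, at r = 0.953 and rho = 0.931, Msmo1, at 0.885, Dhcr7, at 0.851, Fdft1, at 0.844, Gamt, at 0.840, Stard4, at 0.839, Aldoc, at 0.828, Cyb5r3, at 0.816, Pmvk, at 0.808, and Gabpb1, at 0.804. Nsdhl and Msmo1 remove the methyl groups of lanosterol products, Dhcr7 makes the last reduction to cholesterol, Fdft1 makes squalene and Pmvk phosphorylates mevalonate phosphate. Gamt is an enzyme of creatine synthesis and Aldoc an aldolase of glycolysis. Without SJL39, Nsdhl (0.932) and Msmo1 (0.861) stayed the top pair, and Dhcr7 and Pmvk ranked 17 and 65. Without SJL39 and DBA166, the 2 arrays farthest from the middle, Nsdhl had r = 0.927.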

How the data were processed

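The intensity values are signals deposited by the authors for each probe set, made with MAS5 per the submitters' processing notes; the version is not given in the sources used here. They are linear, and the 2% trimmed mean averaged 150 over the 36 arrays. No further scaling was made. Here, log2(signal + 2.77) was taken, where 2.77 is the 10th percentile. Of 45101 probe sets, 34945 carry 1 gene symbol in GEO's platform annotation. A gene was represented by its set of highest mean log2, with sets ending in x_at passed over unless alone, and was tested if 3 arrays exceeded 30.8, the median. Group means of 12 groups were fitted over 36 arrays with limma 3.58.1 in R 4.3.3, two-sided, with Benjamini-Hochberg adjustment over 14057 genes. The labels give no batch. The procedure was tested on simulated data.

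The 7 genes and all lists were chosen with earlier results of these data known. All 7 genes were named in each comparison. Of each pathway list, up to 4 genes with the smallest p at 6 h were named, with Srebf2 and Insig2; the genes named from likeness were the 10 with the highest Pearson r. Genes of these lists that did not reach the test were not analysed here. Alternatives changed the offset, the scaling, the filter, the probe sets, the arrays in the fit, array weights and the variance prior, and left out each array. Strain contrasts over 3 times and the passing over of s_at sets were added after seeing the data.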

Additional observations from a re-analysis of the deposited data

How the results depend on the processing

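No direction of a called result turned under any of the alternatives run, and the counts of the 7 genes past the threshold changed as follows. For the mean change at 3 h, the count was 1 with all arrays and 0 with probe sets averaged, when the fit held the compared groups alone, or with s_at sets passed over. It was 0 to 2 without 1 array (0 without any of 13 arrays, 2 without SJL40). For the mean change at 6 h it was 2, 1 with probe sets averaged or s_at sets passed over, and 1 to 3 without 1 array. In SJL at 3 h it was 0, 1 with an offset of 16, and 0 to 6 without 1 array, the 6 without SJL40, 2 without SJL42 and 1 without C57237. In C57 at 6 h it was 0, 2 with array weights, and 0 to 3 without 1 array. In SMJ at 6 h it was 0, 1 with the compared groups alone, and 0 to 1 without 1 array, and in DBA at 6 h it was 0, and 1 with s_at sets passed over. For strains at 0 h it was 2, 6 with the compared groups alone or with array weights, and 0 to 6 without 1 array. For DBA against SMJ at 0 h it was 3, 1 with probe sets averaged, 6 with array weights, and 1 to 6 without 1 array. For the SMJ change at 6 h against the other 3 strains it was 0, 1 with array weights, and 0 to 1 without 1 array. For SJL against the others at 0 h it was 0, 2 under those 2 settings, and 0 to 2 without 1 array. Over the 3 times, DBA against SJL was 3, 1 with the compared groups alone, and 2 to 4 without 1 array; SJL against C57 was 1, 2 with s_at sets passed over, and 1 to 2 without 1 array; DBA against C57 was 4, and 2 to 5 without 1 array. Leaving out SJL39 lowers the shared spread and passing over s_at sets changes Lss alone of the 7; for the others the cause was not tested. With 75th percentile scaling the split of all genes at 3 h was 588 higher and 396 lower, against 444 and 568. No paired analysis was possible because each mouse has its own number and no number is shared between groups. Signal over background limits the low sets, such as the second Fdps set.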
